A study of Mus musculus with 7 samples.

Results

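The genes described here encode the enzymes that build triglyceride on a glycerol backbone: *Gpam*, *Agpat6* and *Agpat9* for the first acylation, *Agpat1*, *Agpat2* and *Agpat3* for the next acylation, *Lpin1* and *Lpin2* for the removal of phosphate, and *Dgat1* and *Dgat2* for the last acylation. The 10 genes were chosen by name from the 37310 genes of a table of RNA-seq counts, with earlier results of these data known. All 10 were among the 17175 genes that passed the filter on low counts. *Agpat6* and *Agpat9* are the older symbols of *Gpat4* and *Gpat3*. The table compares mammary glands of C57BL/6 mice at lactation day 1, with 3 libraries labelled WT (Tardbp wt/wt + WAP-Cre) and 4 libraries labelled *Tardbp* KO (Tardbp fl/fl + WAP-Cre), to ask how RNA levels in the gland differ when TDP-43, the RNA-binding protein encoded by *Tardbp*, is removed from the epithelium. Both groups carry the Cre transgene, which the *Wap* promoter, that of a whey protein, turns on from the middle of pregnancy in luminal epithelial cells. Cre deletes exons 2 and 3 of *Tardbp* in those cells only, whereas RNA was taken from the whole gland with its fat, stroma, vessels and immune cells.

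In a lactating gland, triglyceride is made between the leaflets of the endoplasmic reticulum of secretory cells, buds off as cytoplasmic droplets and is secreted as milk fat. Glycerol 3-phosphate receives a fatty acid from a glycerol-3-phosphate acyltransferase (GPAT), and an acylglycerol-phosphate acyltransferase (AGPAT) adds another to give phosphatidic acid. A lipin then removes the phosphate and a diacylglycerol acyltransferase (DGAT) completes the molecule. Phosphatidic acid and diacylglycerol also feed the synthesis of phospholipids, and adipocytes of the mammary fat pad run the same pathway, so RNA of these genes in the gland has more than 1 source.

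Libraries held 36007737 to 42811337 counts, and the 10 genes took between 0.0902% and 0.156% of them. *Tardbp* itself did not tell the genotypes apart, at 187 ± 32.6 CPM, the counts of a gene scaled to the size of the library, in WT libraries (SD, n = 3) and 188 ± 28.2 CPM in libraries labelled KO (SD, n = 4), with a log2 fold change of 0.01 and an adjusted p of 0.982 (Benjamini-Hochberg adjusted over all genes, quasi-likelihood or QL test of edgeR). That count covers the whole gene in all cells of the gland, and counts of the deleted exons alone were not analysed here. The genotypes below are therefore those of the labels. The study reported effective loss of TDP-43 in the mammary epithelium by immunofluorescence, in late pregnancy and at a later stage of lactation. Milk protein genes took 28.9% ± 4.41 of the counts in WT libraries and 17.1% ± 4.11 in libraries labelled KO, and levels are therefore given as CPM after TMM scaling, which does not let a few abundant genes set the scale. Summed levels of 10 lymphocyte markers ranged from 38.4 to 53.4 CPM in WT libraries and from 67.4 to 588 CPM in libraries labelled KO. Those of 7 adipocyte markers ranged from 2645 to 3883 CPM and from 2737 to 5584 CPM, those of 9 luminal epithelial markers from 2849 to 3851 CPM and from 3295 to 4691 CPM, and those of 7 myoepithelial markers from 1099 to 1868 CPM and from 960 to 2806 CPM. No marker was at 0 on average in either genotype. Fewer cells of a type and less RNA per cell cannot be told apart in these bulk libraries. Only lane 4 of the sequencer held both genotypes (WT replicate 2, KO replicates 3 and 4).

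TDP-43 is known to bind runs of UG in RNA, and such runs, taken as at least 3 UG in a row, were counted in the longest transcript annotated for a gene. In the letters of the genome a run begins with TGTGTG. *Agpat6*, with 5 runs, and *Agpat1*, with 4, held the most among the 10 genes. Of the 15112 tested genes that have a protein-coding transcript, 10.2% held at least as many runs as *Agpat6* and 16.9% at least as many as *Agpat1*, and the median gene held 1. Per kilobase, *Agpat1* had 5.48 UG within runs, a density reached by 5.81% of the genes, and *Agpat6* had 4.06, reached by 11.8%. *Lpin1* held 3 runs, *Gpam*, *Agpat3*, *Lpin2* and *Dgat1* held 2 each, *Agpat2* and *Dgat2* held 1 each, and *Agpat9* held 0, as did 28.5% of the genes. The 4 runs of *Agpat1* lie in exon 2 and exon 4 of 7, both in coding sequence, and at 2 places in the 3′ untranslated part of exon 7. The longest run of *Agpat6*, of 4 UG, lies in the 5′ untranslated part of exon 2 of 13, and the first of the 2 runs of *Agpat3*, also of 4 UG, lies in coding sequence of exon 5 of 10. The sequences are shown because *Agpat1*, *Agpat6* and *Agpat3* are the members whose levels did not overlap between genotypes, in the sense direction of the transcript from assembly NCBIM37 (mm9), with the run in capitals.
Agpat1 exon 2, chr17:34747541-34747570, plus strand: tcgcaatccccgTGTGTGctgtgcgagggc
Agpat1 exon 4, chr17:34748233-34748262, plus strand: ctgccagatcgtTGTGTGcccattgccaag
Agpat1 exon 7, chr17:34749664-34749693, plus strand: ctcaatggtcttTGTGTGgccttctctccc
Agpat1 exon 7, chr17:34750290-34750319, plus strand: ggggtacagtttTGTGTGgttggtttttat
Agpat6 exon 2, chr8:24301378-24301407, minus strand: aaggacgtgttTGTGTGTGgaaaagagggc
Agpat3 exon 5, chr10:77747046-77747075, minus strand: gagggagctgcTGTGTGTGcctctcatcgg
These matches are letters in an annotated transcript and are not measurements of binding. *Agpat3*, whose level was higher in libraries labelled KO, and *Agpat1*, whose level was lower, both hold such runs. At least 1 run was held by 71.5% of the genes, and at least as many as *Agpat3* by 45.8%. All runs of *Gpam*, *Lpin1* and *Dgat2*, whose levels overlapped between genotypes, lie in 3′ untranslated parts. The part of such runs in the levels was not tested.

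The 10 genes did not move together, as 5 were higher (54.3% of all 17175 genes) and 5 lower (45.7%) in libraries labelled KO. Their median log2 fold change was −0.09, beside 0.05 over all genes, and 6 of them differed by less than 0.5 (68.5% of all genes). None passed the study's limits of an adjusted p below 0.01 together with a log2 fold change beyond 1 in either direction in the QL test of edgeR, and neither did any other gene (0%). At these limits 426 genes (2.48%; 1.04% higher and 1.44% lower) were called in the exact test of edgeR and 572 (3.33%; 1.69% higher and 1.64% lower) in DESeq2, again with 0 of the 10. At an unadjusted p under 0.05, the quasi-likelihood test picked 3 of the 10 genes (*Agpat1*, *Agpat6* and *Agpat3*) beside 21.4% of all genes. Levels of the same 3 genes did not overlap between genotypes, which held for 18.7% of all genes, with *Agpat1* and *Agpat6* lower in libraries labelled KO (9.62% of all genes) and *Agpat3* higher (9.07%). The other 7 genes overlapped between genotypes. The plot of levels by library shows how the 10 genes are spread and which libraries stand high or low.

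**Figure D1:**
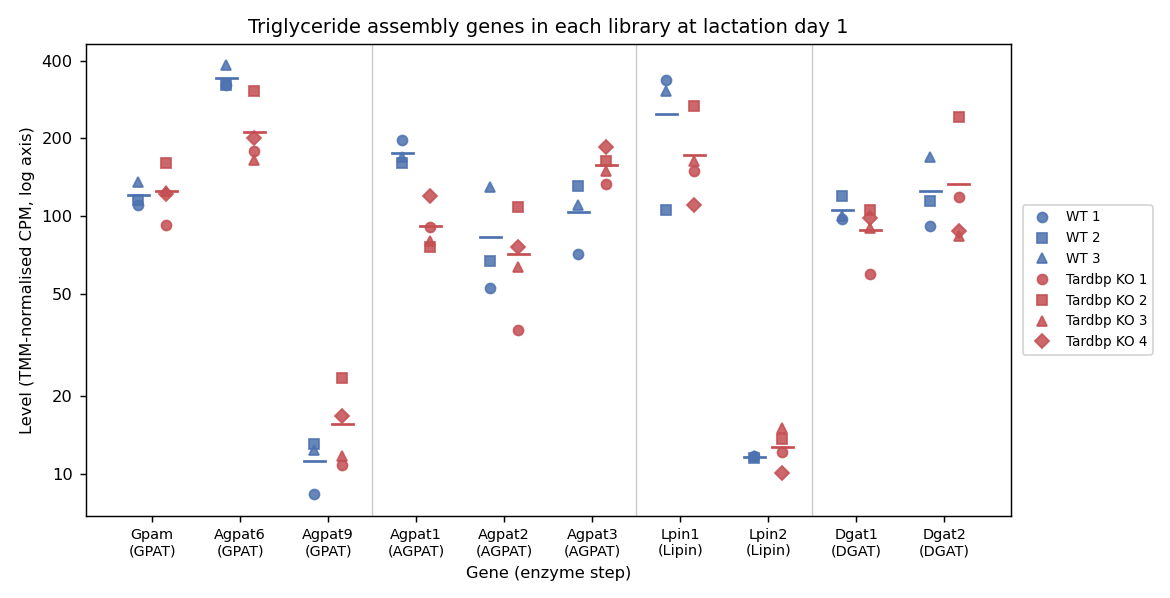
Levels of the 10 triglyceride assembly genes (TMM-normalised CPM, log axis) in each of 3 WT and 4 *Tardbp* KO libraries, grouped by enzyme step, with short lines at the means. *Agpat6* and *Agpat1* points of KO libraries all lie below those of WT libraries and *Agpat3* points all lie above, and the other 7 genes overlap.

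The first acylation is shared by the mitochondrial enzyme of *Gpam* and the endoplasmic reticulum enzymes of *Agpat6* and *Agpat9*. *Agpat6* (ENSMUSG00000031545, chr8:24283418-24318925, minus strand) is the GPAT that mouse milk fat is known to depend on. Its level was 322, 322 and 383 CPM in WT libraries and 179, 304, 164 and 200.4 CPM in libraries labelled KO. Each of the 4 KO libraries was under every WT library, with KO replicate 2 close under them. The means of 342 ± 35.03 CPM (SD, n = 3) and 212 ± 63.2 CPM (SD, n = 4) gave a log2 fold change of −0.69 (SE 0.227, 95% interval −1.21 to −0.18) with an adjusted p of 0.139 in the QL test of edgeR, and 0.0402 in DESeq2. The 2-sided exact permutation test of log2 levels gave p = 0.0571, where 0.0286 is the smallest value that 3 against 4 libraries allow. With the mean log2 level of the lymphocyte markers as a covariate the difference was −0.16. Summed levels of these markers did not overlap between genotypes, so lymphocytes and genotype cannot be told apart here. The part of those cells in the result was not tested further.

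*Gpam* (ENSMUSG00000024978, chr19:55142142-55201824, minus strand) encodes the GPAT of the mitochondrial outer membrane. It stood at 110.0, 115 and 136 CPM in WT libraries and at 92.2, 159.8, 125 and 121 CPM in libraries labelled KO. KO libraries lay on both sides of the WT range, and the log2 fold change was 0.05 (SE 0.194, 95% interval −0.39 to 0.49, adjusted p = 0.906, the QL test of edgeR). *Agpat9* (ENSMUSG00000029314, chr5:101274732-101328121, plus strand), the GPAT gene known for its role in adipocytes, was far lower, at 8.35, 13.1 and 12.3 CPM in WT libraries and 10.8, 23.4, 11.7 and 16.7 CPM in libraries labelled KO. Its KO libraries reached from inside the WT range to above it, with a log2 fold change of 0.48 (SE 0.300, 95% interval −0.20 to 1.15, adjusted p = 0.401). That was 0.30 without WT replicate 1, 0.21 without KO replicate 2, 0.12 within lane 4 and 1.18 with lymphocyte markers as a covariate. Of the exon bases of *Agpat9*, 30% also belong to exons of 4930458D05Rik, where reads were not counted, so its level is uncertain.

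Ratios of genes of 1 step within a library do not depend on the scaling between libraries, and 8 such pairs were tested. The log2 ratio of *Gpam* to *Agpat6* counts was −1.55, −1.49 and −1.50 in WT libraries and −0.95, −0.93, −0.39 and −0.72 in libraries labelled KO. WT libraries were nearly equal, and every KO library lay above them. The difference of 0.76 had an exact permutation p of 0.0286 and 0.0762 after Benjamini-Hochberg adjustment over the 8 pairs. The log2 ratio of *Agpat6* to *Agpat9* differed by −1.16, from 4.95 ± 0.327 (SD, n = 3) to 3.78 ± 0.199 (SD, n = 4), with all 4 KO libraries below the WT libraries and the same exact p (0.0286, adjusted 0.0762). That of *Gpam* to *Agpat9* differed by −0.40 and the genotypes overlapped (exact permutation p = 0.114, adjusted 0.183).

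Levels of different genes can be set beside each other only per length of exons. On that scale *Agpat6* made up 79.7% ± 0.843 of the summed level of the GPAT members in WT libraries (SD, n = 3). In libraries labelled KO it made up 68.8% ± 3.37 (SD, n = 4). *Gpam* made up 17.4% ± 0.25 and 25.6% ± 3.46, and *Agpat9* 2.95% ± 0.637 and 5.65% ± 0.731. *Agpat6* thus held the largest share of this step in all 7 libraries, from 64.4% in KO replicate 3 to 80.6% in WT replicate 1.

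The next acylation turns lysophosphatidic acid into phosphatidic acid. *Agpat1* (ENSMUSG00000034254, chr17:34741207-34750394, plus strand), a widely expressed AGPAT of the endoplasmic reticulum, had 197, 161 and 169 CPM in WT libraries and 90.4, 76.0, 80.2 and 119 CPM in libraries labelled KO. The highest KO library, replicate 4, lay well below the lowest WT library. Means were 176 ± 18.7 CPM (SD, n = 3) and 91.4 ± 19.4 CPM (SD, n = 4), a log2 fold change of −0.94 (SE 0.183, 95% interval −1.36 to −0.53). Its unadjusted p of 0.000622 was the 149th lowest of all genes and the adjusted p was 0.0712 in the QL test of edgeR. The adjusted p was 0.00103 in the exact test of edgeR and 0.000688 in DESeq2, which passes the limit on p in both, while the fold change stayed under the limit on size. The exact permutation test of log2 levels gave its smallest possible p, 0.0286. With lymphocyte markers as a covariate the log2 fold change was −0.92, and with adipocyte markers it was −0.88. Within lane 4, without a test, it was −0.69. These are estimates only, and the adjusted p of *Agpat1* reached 0.656 among the alternatives run with the QL test of edgeR. The study listed *Agpat1* among the lipid genes it called differentially expressed in these libraries, so its direction here is not independent evidence. At the study's limits no test here called it, and the cause of this difference was not tested. The study had also counted UG motifs in the same *Agpat1* transcript. Of its exon bases, 3.37% are shared with exons of *Egfl8*.

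*Agpat3* (ENSMUSG00000001211, chr10:77731923-77815234, minus strand), an AGPAT that also acylates other lysophospholipids, went the other way. It had 71.2, 131 and 110.0 CPM in WT libraries and 133, 163, 149 and 184 CPM in libraries labelled KO. The lowest KO library, replicate 1, lay just above the highest WT library, replicate 2, and WT replicate 1 was the lowest of all. Means were 104 ± 30.2 CPM (SD, n = 3) and 157 ± 21.8 CPM (SD, n = 4), a log2 fold change of 0.60 (SE 0.220, 95% interval 0.10 to 1.10) with an adjusted p of 0.169 in the QL test of edgeR and an exact permutation p of 0.0286. Without WT replicate 1 the log2 fold change was 0.39. *Agpat2* (ENSMUSG00000026922, chr2:26448577-26459937, minus strand), whose loss is known to cause lipodystrophy, had 52.8, 66.7 and 129.5 CPM in WT libraries and 36.1, 109, 63.2 and 75.7 CPM in libraries labelled KO. Both genotypes spread widely and overlapped, and the log2 fold change of −0.23 (SE 0.393, 95% interval −1.12 to 0.66, adjusted p = 0.784) was 0.25 without WT replicate 3.

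*Agpat1* and *Agpat3* therefore differed from each other more than either did alone. Their log2 ratio was 1.47, 0.30 and 0.62 in WT libraries and −0.55, −1.10, −0.90 and −0.63 in libraries labelled KO. By raw counts, more fell on *Agpat1* in every WT library and more on *Agpat3* in every KO library. Exons of *Agpat3* span 7577 bases, however, and those of *Agpat1* 3001. Per kilobase of exons *Agpat1* lay above *Agpat3* in every library of both genotypes, with means of 30.5 and 20.8 CPM in libraries labelled KO. The difference of −1.59 in log2 ratio had an exact permutation p of 0.0286 (0.0762 adjusted over the 8 pairs). It was −1.06 within lane 4. *Agpat1* to *Agpat2* differed by −0.73 (exact permutation p = 0.257, adjusted 0.294) and *Agpat2* to *Agpat3* by −0.86 (0.114, adjusted 0.183), both with overlap. Per length of exons, *Agpat3* made up 12.4% ± 3.93 of the summed level of *Agpat1*, *Agpat2* and *Agpat3* in WT libraries (SD, n = 3). In libraries labelled KO it made up 24.9% ± 2.23 (SD, n = 4). The highest WT library, at 16.9%, lay below the lowest KO library, at 21.9%. Left out of this sum were *Agpat4*, *Agpat5* and *Lclat1*, at 3.70, 2.25 and 3.28 CPM per kilobase in WT libraries. The share of *Agpat1* was 53.7% ± 11.5 and 36.9% ± 8.72, with overlap, and that of *Agpat2* was 33.9% ± 11.02 and 38.3% ± 10.7.

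**Figure D2:**
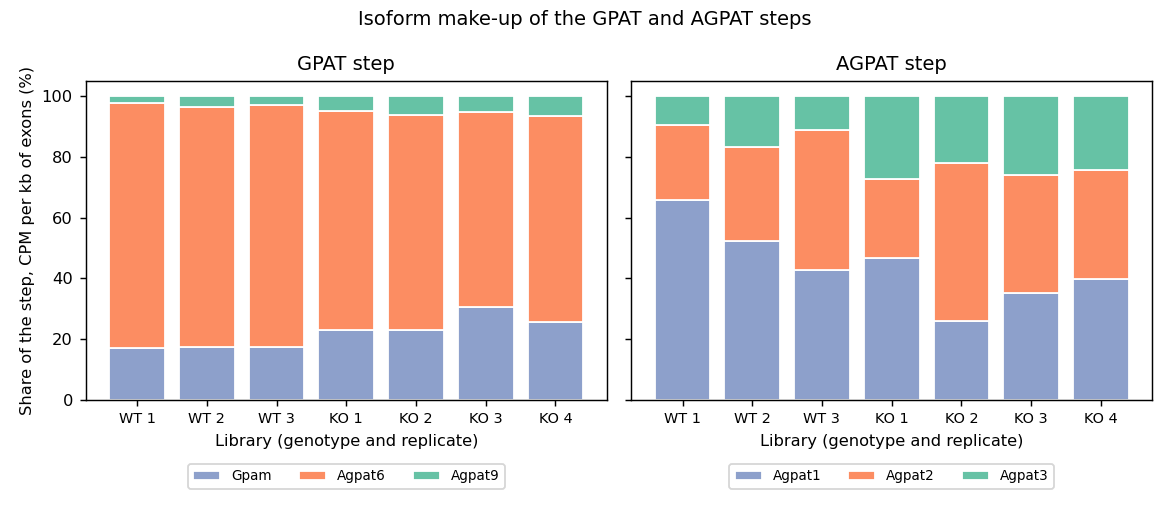
Share (%) of each gene in the summed level of the members of its step, in each of the 7 libraries. Levels are TMM-normalised CPM per kilobase of exons, for the GPAT members (left) and the AGPAT members (right). *Agpat6* is the largest part of the GPAT bars throughout, and the *Agpat3* part is larger in all 4 KO libraries (21.9% and above) than in the 3 WT libraries (16.9% and below).

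**Figure D3:**
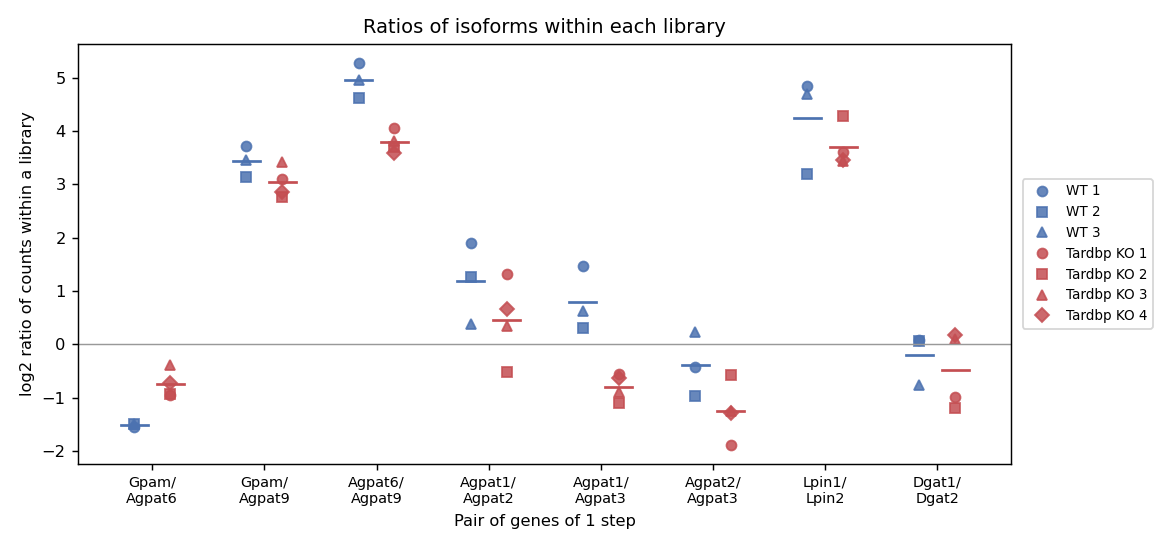
Log2 ratios of the counts of 2 genes of 1 step within each library, for 8 pairs, with lines at the means of 3 WT and 4 *Tardbp* KO libraries. The genotypes are apart for *Gpam*/*Agpat6*, *Agpat6*/*Agpat9* and *Agpat1*/*Agpat3* and overlap for the other 5 pairs.

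Lipins turn phosphatidic acid into diacylglycerol and also act in the nucleus on genes of fat metabolism. *Lpin1* (ENSMUSG00000020593, chr12:16542475-16596576, minus strand) had 336, 105 and 305 CPM in WT libraries and 149, 266, 163 and 111 CPM in libraries labelled KO. WT replicate 2 was the lowest of all 7 libraries and the other WT libraries were the highest, so the genotypes overlapped in full. The log2 fold change of −0.53 (SE 0.408, 95% interval −1.46 to 0.39) had an adjusted p of 0.499 in the QL test of edgeR, was −0.25 without WT replicate 1, −0.36 without WT replicate 3, −0.90 without WT replicate 2 and −0.82 without KO replicate 2, and was 0.38 within lane 4, where WT replicate 2 is the only WT library. *Lpin2* (ENSMUSG00000024052, chr17:71531900-71599157, plus strand) had 11.7, 11.5 and 11.7 CPM in WT libraries and 12.2, 13.7, 15.0 and 10.1 CPM in libraries labelled KO. It was nearly equal across WT libraries, and KO libraries lay on both sides, with a log2 fold change of 0.13 (SE 0.180, 95% interval −0.28 to 0.54, adjusted p = 0.727). Per length of exons, *Lpin1* made up 97.3% ± 1.83 of the sum of *Lpin1* and *Lpin2* in WT libraries (SD, n = 3). In libraries labelled KO it made up 96.4% ± 0.834 (SD, n = 4). *Lpin3*, left out of that sum, stood at 4.59 CPM per kilobase in WT libraries and 4.67 in libraries labelled KO. *Lpin2* stood lower, at 0.953 and 1.04. The log2 ratio of *Lpin1* to *Lpin2* differed by −0.55 with overlap (exact permutation p = 0.257, adjusted over the 8 pairs 0.294).

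The last step is carried out by unrelated enzymes, DGAT1 with many membrane spans and DGAT2 with a hairpin in the membrane. *Dgat1* (ENSMUSG00000022555, chr15:76332445-76342381, minus strand), without which mice are known to fail at lactation, had 97.1, 119.9 and 99.5 CPM in WT libraries and 59.8, 106, 89.7 and 98.2 CPM in libraries labelled KO. KO replicate 1 was the lowest, replicate 3 also lay below the WT libraries and replicates 2 and 4 lay within their range, with a log2 fold change of −0.26 (SE 0.203, 95% interval −0.71 to 0.20, adjusted p = 0.515 in the QL test of edgeR). *Dgat2* (ENSMUSG00000030747, chr7:106302173-106331223, minus strand) had 91.5, 114 and 169 CPM in WT libraries and 118, 242, 83.8 and 87.5 CPM in libraries labelled KO. KO replicate 2 was the highest and the other KO libraries lay within or just below the WT range. Its log2 fold change was 0.09 (SE 0.386, 95% interval −0.79 to 0.96, adjusted p = 0.924), −0.37 without KO replicate 2, −0.42 within lane 4 and −0.28 with adipocyte markers as a covariate. The log2 ratio of *Dgat1* to *Dgat2* differed by −0.27, with KO libraries both above and below the WT libraries (exact permutation p = 0.657, adjusted 0.657), and was 0.065 within lane 4.

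**Figure D4:**
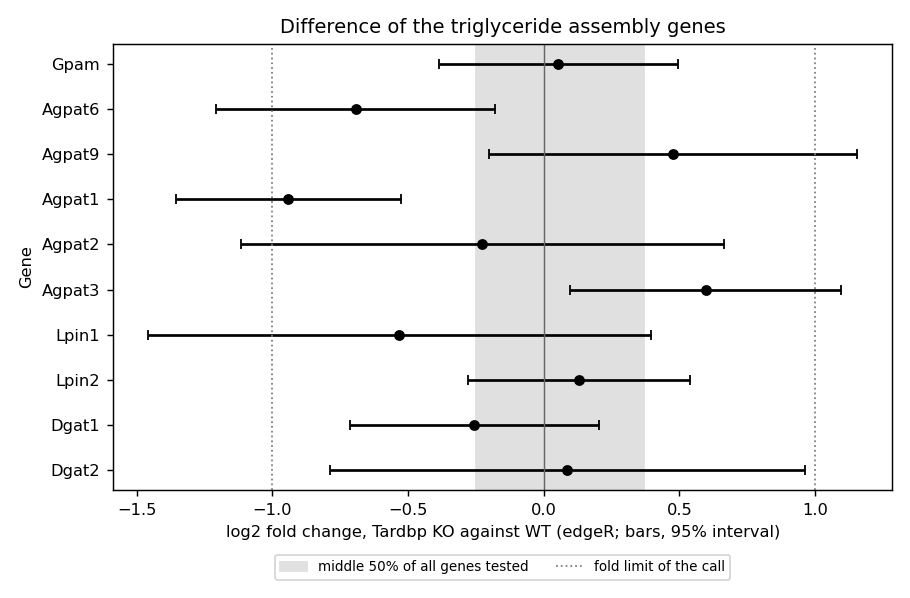
Log2 fold change of the 10 genes, *Tardbp* KO against WT, with 95% intervals from edgeR's quasi-likelihood fit, beside the middle 50% of all 17175 genes (grey, −0.25 to 0.37) and the limits of 1 in either direction (dotted). The intervals of *Agpat1*, *Agpat6* and *Agpat3* leave out 0, and no estimate lies beyond the dotted lines.

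KO replicate 2 was the highest of the 4 KO libraries for *Gpam*, *Agpat6*, *Agpat9*, *Agpat2*, *Lpin1*, *Dgat1* and *Dgat2*. It also had the highest summed adipocyte markers, 5584 CPM against 2737 to 3679 CPM in the other KO libraries, and the lowest lymphocyte markers, 67.4 CPM against 133 to 588 CPM. *Agpat1* went against this, as KO replicate 2 was its lowest library. Among WT libraries, replicate 3 had the most adipocyte markers, at 3883 CPM, and the highest *Gpam*, *Agpat6*, *Agpat2* and *Dgat2*. The part of adipocytes and lymphocytes in these levels was not tested. Without KO replicate 2 the median log2 fold change of the 10 genes was −0.36, and the number of genes whose genotypes did not overlap was again 3.

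By level per kilobase of exons, *Agpat6* came first in WT libraries, at 86.8 ± 8.88 CPM per kilobase (SD, n = 3), and lay above the next gene without overlap. *Agpat1* followed with 58.5 ± 6.25, *Dgat2* with 55.5 ± 17.7, *Lpin1* with 43.5 ± 21.9, *Agpat2* with 39.0 ± 19.2 and *Dgat1* with 34.5 ± 4.11, and each of these overlapped its neighbour in that order. *Gpam* at 18.9 ± 2.16, *Agpat3* at 13.7 ± 3.99, *Agpat9* at 3.22 ± 0.729 and *Lpin2* at 0.953 ± 0.0112 stood below *Dgat1* and each lay below the one before without overlap. In libraries labelled KO *Dgat2* came first, at 59.0 ± 33.0 CPM per kilobase (SD, n = 4), then *Agpat6* at 53.7 ± 16.02, *Agpat2* at 33.3 ± 14.1, *Agpat1* at 30.5 ± 6.45, *Lpin1* at 30.1 ± 11.6, *Dgat1* at 28.9 ± 6.60, *Agpat3* at 20.8 ± 2.87 and *Gpam* at 19.6 ± 4.36. All these neighbours overlapped. *Agpat9*, at 4.48 ± 1.66, and *Lpin2*, at 1.04 ± 0.173, were again last and separate. The length covers all annotated exons of a gene. With the length of the longest transcript, *Agpat1* stood at 80.2, *Dgat1* at 55.9, *Agpat2* at 55.7 and *Lpin2* at 2.07 CPM per kilobase in WT libraries. *Agpat1* then overlapped *Agpat6*, and *Dgat1* no longer lay below *Dgat2*. The mean of *Agpat2*, which spread widely, was then above that of *Lpin1*, at 44.3.

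For the gene with the highest WT level per length of all exons in each step, the 3 tested genes with the most alike pattern over the 7 libraries were taken, by the root mean square difference of centred log2 levels. For *Agpat6* these were *Gm2a* (0.144), *Stat5a* (0.154) and *Gm10570* (0.162), where the median gene differed by 0.510, and the nearest of the other 9 members, *Dgat1*, ranked 1236. For *Agpat1* they were *Mfsd10* (0.0718), *Nudt22* (0.0820) and *Ndufa3* (0.0847), and the nearest member, *Agpat6*, ranked 2301. For *Lpin1* they were *Gucy1b3* (0.165), *Slc7a8* (0.236) and *Col11a1* (0.262), with *Agpat6* at rank 1879. For *Dgat2* they were *Sfrp1* (0.152), *Mfap2* (0.155) and *Cspg4* (0.169), with *Gpam* at rank 668.

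Genes around the pathway were described from lists. Supply of glycerol 3-phosphate and acyl-CoA was lower in libraries labelled KO for all 8 tested genes (*Acsl6* of the 9 did not pass the filter), where 45.7% of all genes were lower, and the median log2 fold change was −0.34. With libraries scaled by size only, that median was 0.040, beside 0.42 over all genes, and without KO replicate 1 it was −0.21. Of the 8 genes, 0 passed the limits in the QL test of edgeR, 3 had an unadjusted p under 0.05 (10.7% of all genes in this direction) and 3 lay below WT without overlap (9.62%). *Gyk*, the glycerol kinase gene now called *Gk*, had 231, 187 and 166 CPM in WT libraries and 101, 62.0, 51.5 and 87.3 CPM in libraries labelled KO. No KO library reached the lowest WT library, and the log2 fold change was −1.37 (SE 0.244, adjusted p = 0.0678 in the QL test of edgeR). Its adjusted p was 7.25e-05 in the exact test of edgeR and 0.000105 in DESeq2, and both called it. *Gpd1*, the enzyme that makes glycerol 3-phosphate from a glycolytic intermediate, had 544, 424 and 599 CPM in WT libraries and 191, 319.9, 236 and 327 CPM in libraries labelled KO. It too was lower without overlap, by a log2 fold change of −0.96 (SE 0.230, adjusted p = 0.0851, the QL test of edgeR). *Gpd1* and *Acsl1*, a long-chain acyl-CoA synthetase gene with a log2 fold change of −0.98 (SE 0.369, adjusted p = 0.175) and overlapping genotypes, were singled out after their values were seen. The smallest difference of the list was that of *Acsl5*, at −0.08.

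Among 6 genes of triglyceride breakdown, 4 were higher and 2 lower, with a median log2 fold change of 0.33 and 0 called by the quasi-likelihood test. The median was 0.17 without WT replicate 1, 0.16 without KO replicate 2 and 0.073 within lane 4. *G0s2*, whose product inhibits adipose triglyceride lipase, had 897, 488 and 1067 CPM in WT libraries and 104, 162, 30.1 and 151 CPM in libraries labelled KO. Every KO library lay far below every WT library. The log2 fold change was −2.87 (SE 0.521, adjusted p = 0.0692 in the QL test of edgeR), while the exact test of edgeR, with an adjusted p of 1.6e-05, and DESeq2, with 1.82e-06, called it. With lymphocyte markers as a covariate it was −1.81. *Mgll*, the monoglyceride lipase gene, had the largest positive difference of the list, with 175, 252 and 233 CPM in WT libraries and 393, 307, 272 and 307 CPM in libraries labelled KO. Its KO libraries all lay above the WT libraries, with a log2 fold change of 0.54 (SE 0.194, adjusted p = 0.162, the QL test of edgeR).

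Other isoforms of the assembly steps, 7 genes in all, had a median log2 fold change of −0.41, with 0 called, 0 at an unadjusted p under 0.05 and 0 without overlap. They ran from *Agpat4* at −0.95 (SE 0.482, adjusted p = 0.297) to *Mogat2* at 0.40 (SE 0.576, adjusted p = 0.736). *Mogat2* was close to absent, with 3, 10 and 4 counts in WT libraries and 10, 14, 6 and 9 in libraries labelled KO. Within lane 4 both genes turned, to 0.26 and −0.73. The median of the list was −0.21 without WT replicate 1. Lipin control and droplet formation, with 5 of 6 genes tested (*Fitm1* did not pass the filter), had a median of 0.14, from *Fitm2* at −0.34 to *Tmem159* at 0.26, with 0 called and 0 at an unadjusted p under 0.05. Its median ranged from 0.017 to 0.23 when single libraries were left out, and was lowest without WT replicate 1 and highest without WT replicate 2. The phospholipid branches, 6 genes, had a median of 0.07, which ranged from −0.084 without KO replicate 4 to 0.16 without KO replicate 1. The CDP-diacylglycerol synthase gene *Cds2* was its highest, at 0.57 (SE 0.180, adjusted p = 0.131). The ethanolamine phosphotransferase gene *Ept1* was its lowest, at −0.40 (SE 0.156, adjusted p = 0.185). Both overlapped between genotypes, and they were its 2 genes with an unadjusted p under 0.05 (21.4% of all genes). *Cds1*, at 0.29 (SE 0.195, adjusted p = 0.428), was its only gene without overlap, higher in libraries labelled KO (9.07% of all genes). Adjusted p are from the QL test of edgeR.

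**Figure D5:**
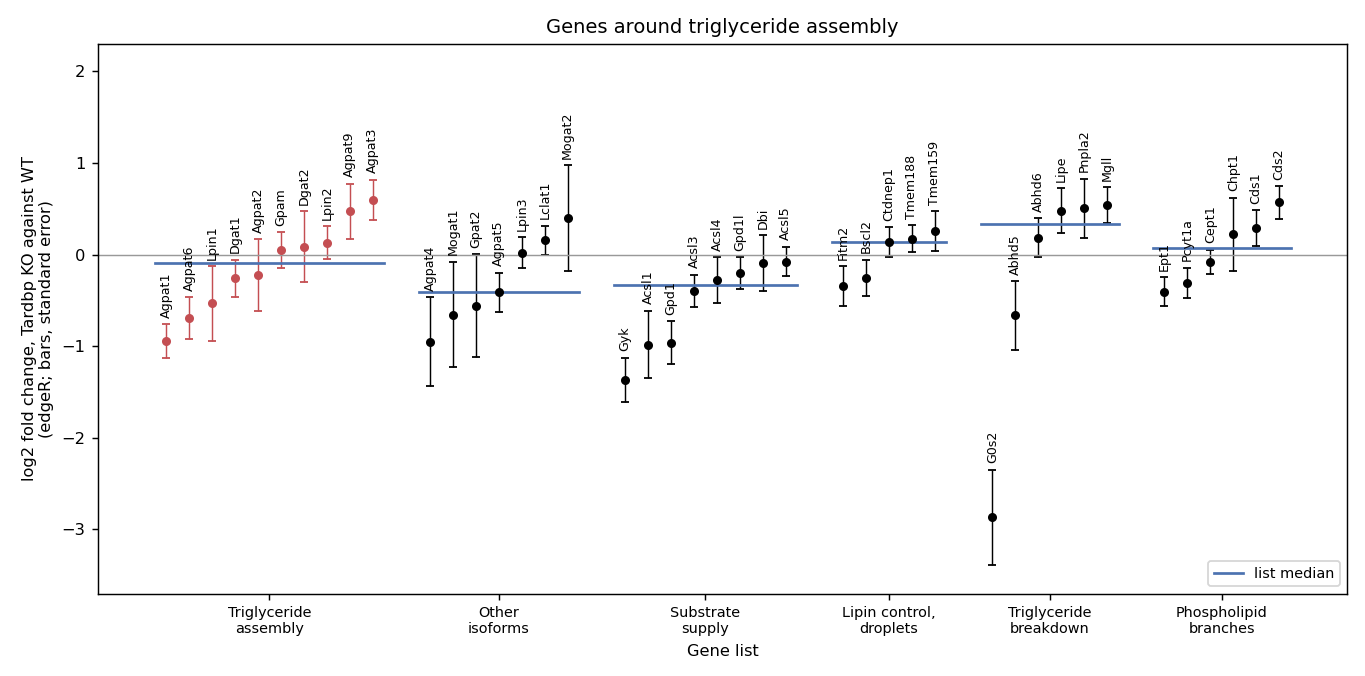
Log2 fold change of single genes, *Tardbp* KO against WT, with standard errors from edgeR's fit, for the 10 assembly genes and 5 lists around them, with a blue line at each list's median. All 8 substrate supply genes lie below 0 (median −0.34), the assembly genes lie on both sides (median −0.09), and *G0s2* at −2.87 stands far below the other breakdown genes.

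Promoter sequence around the start site was at hand for 7 of the 10 genes, from RefSeq on GRCm38.p6, and for none of *Agpat6*, *Dgat1* and *Dgat2*. The letters TTCNNNGAA, to which STAT proteins are known to bind, were found on either strand in *Agpat1* alone, 247 bases before the start site, and in 8.3% of 32851 promoter windows of the same length. They are shown with their surroundings, the match in capitals.
Agpat1 promoter, GRCm38.p6 chr17:34605611-34605630, plus strand: gggTTCAAAGAAaggcaacg
CACGTG, a box bound by USF and MYC family factors, was found in *Lpin2* alone (7.15% of windows), and CCAAT in *Agpat1*, *Gpam* and *Lpin2* (37.4%). TCACNCCAC, one form of the sterol response element, was found in 0 of the 7 and in 1.24% of windows. The 7 genes were counted over all windows of each gene, and *Lpin2* had matches at separate start sites. Shares over windows are therefore not shares over genes.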

How the data were processed

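The members and gene lists were chosen with earlier results of these data known. The authors made TruSeq libraries of total RNA, mapped paired-end reads to NCBIM37 (mm9) with STAR (2.5.2a per the labels) and counted them per gene with featureCounts 1.4.6-p5. The deposited values are raw counts without normalization, mates counted separately, without strand, and reads over more than 1 gene left out. The command line names 1 more library, not analysed here.

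The filter left out 37 mitochondrial and 580 ribosomal genes and required 5 counts or more in 4 or more of the 7 libraries. edgeR 4.0.16 (TMM, quasi-likelihood test, R 4.3.3) was fitted on all 17175 genes without covariates, with Benjamini-Hochberg adjustment. The study's methods name edgeR and the limits but no test. The alternatives were edgeR's exact test, DESeq2 1.42.0, other scalings and filters, covariates, a replicate block, lane 4 alone and leaving out single libraries. Exact permutation tests used all 35 splits of log2(CPM + 1) or of within-library log2 ratios. Single counts were worth 0.0205 to 0.0376 CPM, and the lowest count of a member was 222 (*Agpat9*, WT replicate 1). Counting error was not estimated apart from the spread between libraries. The study gives 3 and 4 mice, as many as there are libraries, and p-values measure the spread between these libraries.

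Members were all named. Of each pathway and marker list the rule named the genes with the largest and smallest log2 fold change and those called by the quasi-likelihood or exact test, and marker lists are given as sums and counts. In the lymphocyte list all 10 genes were higher in libraries labelled KO (median log2 fold change 3.51, from *Ptprc* at 1.93 to *Ms4a1* at 5.75) and the exact test called *Cd79a*, *Cd79b*, *Ms4a1* and *Cd22* among others. The values of 1 marker gene are not reported here by themselves. All 7 milk protein genes were lower (median −1.10, from *Csn1s2b* at −1.46 to *Csn3* at −0.79) and it called *Csn1s1*, *Csn1s2b* and *Lalba*. Medians were 0.31 for adipocyte markers (*Fabp4* −0.09 to *Cfd* 0.49), 0.55 for luminal markers (*Elf5* −0.59 to *Cldn3* 1.12) and −0.24 for myoepithelial markers (*Krt5* −0.57 to *Trp63* 0.23), with 0 calls. Transcripts were from GENCODE vM1. Python 3.11.15, numpy 2.4.6, pandas 2.3.3 and matplotlib 3.10.9 made the tables and plots.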

Additional observations from a re-analysis of the deposited data

Results flagged for a closer look

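Of 39 groups of values examined for a library far from the others, 1 stood out, where chance gives about 1 in 20. The summed level of myoepithelial markers in KO replicate 1 was 2806 CPM, beside 960 to 1139 CPM in the other libraries labelled KO. In that library *Gpam*, *Agpat9*, *Agpat2*, *Agpat3* and *Dgat1* were at their lowest among the libraries labelled KO, and without it the median log2 fold change of the 10 assembly genes was 0.07. The part of myoepithelial cells was not tested.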

How the results depend on the processing

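Under all 23 alternatives with a test, 0 of the 10 genes was called and 2 to 4 had an unadjusted p under 0.05. *Agpat1* (−1.12 to −0.58) and *Agpat6* (−0.92 to −0.16) stayed lower and *Agpat3* (0.35 to 0.94) higher, lane 4 included. The lowest adjusted p of the main QL test over all genes was 0.0165, so dropping its fold limit could call no gene at 0.01. The exact test and DESeq2 were run only with the fold limit, and their adjusted p for *Agpat1* (0.00103 and 0.000688) are under 0.01. Scaled by library size only, the median of all genes was 0.42, that of the 10 genes 0.27 and that of the supply list 0.040, *Agpat6* overlapped between genotypes, and *Agpat2* (0.12), *Dgat1* (0.11), *Acsl5* (0.31) and *Fitm2* (0.034) changed sign. With lymphocyte markers as a covariate the median was 0.23 and *Agpat2* (0.50), *Dgat1* (0.069) and *Fitm2* (0.16) changed sign, and with adipocyte markers *Gpam* (−0.055) and *Dgat2* (−0.28) did. Leaving out 1 library gave −0.090 to 0.17 for *Gpam* (negative without WT replicate 1 or KO replicate 2), −0.37 to 0.37 for *Dgat2* (likewise), −0.21 to 0.057 for *Acsl5* (positive without WT replicate 1), −0.51 to 0.25 for *Agpat2* and −0.36 to 0.14 for the median of the 10 genes (positive without WT replicate 3, 0.14, or KO replicate 1, 0.07). The exact test and DESeq2 each called 1 gene of the supply list and 1 of the breakdown list. Within lane 4 the differences in log2 ratio were 0.0072 for *Gpam*/*Agpat9*, −1.06 for *Agpat1*/*Agpat3*, −0.29 for *Agpat2*/*Agpat3* and 0.25 for *Lpin1*/*Lpin2*, and *Lpin1* (0.38), *Agpat2* (0.059), *Dgat2* (−0.42), *Agpat4* (0.26), *Mogat2* (−0.73), *Acsl5* (0.22) and *Dgat1*/*Dgat2* (0.065) changed sign. With the longest transcript as length, WT levels were 80.2 for *Agpat1*, 55.7 for *Agpat2*, 2.07 for *Lpin2* and 55.9 CPM per kilobase for *Dgat1*. The cause of these changes was not tested.

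The labels give no pairing of same-numbered libraries of the genotypes, and correlations of their deviations were mixed (0.437, 0.074 and −0.084). A replicate block gave medians of −0.13 for the 10 genes and −0.13 for the phospholipid list (0.07 without it), −1.09 for *Agpat1* (adjusted p = 0.0314, edgeR's quasi-likelihood test) and 0 called members. With bias-adjusted deviances, an alternative chosen after seeing the data, *Agpat1* had an adjusted p of 0.0650, and over all alternatives it ranged from 0.000688 to 0.656. With 3 and 4 libraries, intervals of *Agpat2*, *Lpin1* and *Dgat2* spanned more than 1.5 on the log2 scale, which limits the differences that could be detected for them.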
